A study of Rattus norvegicus with 862 samples.

Results

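Hspa5, Hsp90b1, Xbp1, Calr, Pdia4 and Dnajb9 are 6 genes of the unfolded protein response, and their transcript levels were followed in rat hearts after 88 compounds. The genes were listed by name, and each was measured by its probe set on the Affymetrix whole-genome rat array, so that they made up 6 of 14217 genes measured. RNA of 840 hearts was hybridised, 611 from treated rats and 229 from vehicle controls, with 22 rats measured on 2 arrays and 862 arrays in all. The rats were male Sprague Dawley, CD-IGS, bought at an age of 6 to 8 weeks. They received a compound daily, or the vehicle alone, in nearly all cases for 1, 3 or 5 d. Harvest was in the afternoon for 1 d and in the morning for 3 and 5 d, and polyadenylated RNA was extracted.

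A profile is 1 compound at 1 dose in 1 vehicle by 1 route, set against dose-0 rats of the same vehicle, route, duration and RNA extraction campaign, and 95 of 97 profiles had such controls. The calcineurin inhibitors, all given by Oral Gavage, made up 3 profiles. Cyclosporin A was given at 300 mg/kg in Acacia (10%) with PS80 (0.25%) and Antifoam (0.5%) for 1, 3 and 5 d, with 9 treated rats and 9 controls. At 350 mg/kg it was given in Corn Oil for 3 and 5 d, with 6 treated rats and 19 controls. Tacrolimus was given at 134 mg/kg in CMC for 3 and 5 d, with 6 treated rats and 18 controls. Further profiles described in full are vinblastine 0.3 mg/kg (Intravenous, Saline, 6 treated rats and 16 controls), rapamycin 60 mg/kg and valdecoxib 404 mg/kg (both Oral Gavage in CMC, 6 treated rats each, with the 18 controls of tacrolimus) and dexamethasone 1 mg/kg (Oral Gavage in Corn Oil, 6 treated rats, with the 19 controls of cyclosporin A 350 mg/kg). These 4 were also of 3 and 5 d.

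Secreted and membrane proteins fold in the endoplasmic reticulum (ER), and when unfolded protein builds up there the membrane sensors IRE1, PERK and ATF6 turn on genes of folding, translocation and degradation. Hspa5 (BiP) is the Hsp70 of the ER and keeps the sensors inactive, Hsp90b1 (GRP94) is its Hsp90, Calr (calreticulin) is a lectin chaperone that also binds calcium, Pdia4 (ERp72) forms disulfide bonds, and Dnajb9 (ERdj4) is a J-domain helper of Hspa5. Xbp1 encodes the transcription factor made active when IRE1 splices its RNA, and the array value did not tell spliced from unspliced RNA. In heart muscle the ER is continuous with the calcium store that drives contraction. Cyclosporin A and tacrolimus bind different immunophilins, cyclophilins and FKBP12, and both complexes inhibit the phosphatase calcineurin, whereas rapamycin bound to FKBP12 inhibits mTOR.

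The members differ in the response elements near their start sites, which is why 3 of these windows are shown. Windows of 250 bases before the transcript start (RefSeq, GRCr8; all 6 genes matched) were searched on both strands for the ER stress response element (ERSE, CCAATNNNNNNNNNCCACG), for ERSE-II (ATTGGNCCACG) and for the UPR element (UPRE, TGACGTG). Each ERSE match by its spelling also holds a match to CCAAT and one to CCACG. The windows of Hspa5 (chr3:38452766-38453015, plus strand), Hsp90b1 (chr7:23012294-23012543, minus strand) and Dnajb9 (chr6:67002052-67002301, minus strand) are given 5′ to 3′ along the gene. Capitals mark the CCAAT and CCACG ends of an ERSE and the UPRE in Hspa5 and Hsp90b1, and in Dnajb9 the separate CCAAT and CCACG matches.
Hspa5: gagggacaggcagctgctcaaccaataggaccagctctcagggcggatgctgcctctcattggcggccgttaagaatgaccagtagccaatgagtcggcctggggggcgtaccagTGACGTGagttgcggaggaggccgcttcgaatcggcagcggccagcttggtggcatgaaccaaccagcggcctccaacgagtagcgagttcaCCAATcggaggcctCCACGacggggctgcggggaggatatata
Hsp90b1: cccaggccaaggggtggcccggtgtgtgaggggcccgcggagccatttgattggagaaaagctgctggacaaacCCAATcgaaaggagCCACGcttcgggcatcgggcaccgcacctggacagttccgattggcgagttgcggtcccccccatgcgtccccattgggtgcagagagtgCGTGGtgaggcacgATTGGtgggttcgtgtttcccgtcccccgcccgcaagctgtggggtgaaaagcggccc
Dnajb9: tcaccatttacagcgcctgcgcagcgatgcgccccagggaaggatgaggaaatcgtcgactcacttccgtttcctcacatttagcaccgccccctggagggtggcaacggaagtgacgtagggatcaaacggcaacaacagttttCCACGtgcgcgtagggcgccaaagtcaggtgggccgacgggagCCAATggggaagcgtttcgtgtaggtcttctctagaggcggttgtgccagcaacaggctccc

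Hspa5 held 1 ERSE, 43 to 25 bases before the start, and the only UPRE of the 6 genes, 135 to 129 bases before it. Hsp90b1 held 2 ERSE, 1 on each strand, and Xbp1 and Calr held 1 each, so that the ERSE was found in 4 of 6 members. Over all 33469 windows of this length the ERSE was in 22 (0.0657%), ERSE-II in 14 (0.0418%), the UPRE in 515 (1.54%), CCAAT in 11385 (34%) and CCACG in 9095 (27.2%). The window of Dnajb9 held none of the 3 elements, with CCACG 105 to 101 and CCAAT 62 to 58 bases before the start. The window of Pdia4 also held none, with 3 CCAAT matches. Of the other 75 genes of the ER, stress and calcium lists used below, 5 held an ERSE (Canx, Creld2, Derl3, Dnajc3 and Ero1b). The Dnajb9 start used here lies inside the annotated gene and is that of 1 transcript, and the letters of other starts were not searched.

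Over the whole series, 35 arrays stood apart by low correlation with the others or by high liver or adipocyte markers, none of them from a rat given a calcineurin inhibitor. Heart muscle markers were high throughout, with the median of 10 of them running from 12.17 to 14.08 in treated rats and from 12.57 to 14.03 in controls, against a median of 7.023 over all genes. Array values have no depth, and the number of rats limits the precision.

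Levels are log2 values, on which 1 unit is a doubling. The chaperones were among the well expressed genes of the heart. Hspa5 averaged 11.36 ± 0.314 in treated rats and 11.41 ± 0.259 in control rats (SD, n = 611 and the 217 controls whose labels agree), at the percentile 97.2 of all genes by mean level. Calr averaged 10.87 ± 0.235 in treated and 10.95 ± 0.188 in control rats, Hsp90b1 10.89 ± 0.249 and 10.94 ± 0.229, and Xbp1 10.11 ± 0.262 and 10.15 ± 0.222 in the same order of groups. Dnajb9 averaged 9.287 ± 0.403 in treated rats, with extremes of 6.709 and 10.86, and 9.136 ± 0.367 in control rats, with extremes of 7.197 and 10.11. Pdia4, at the percentile 67.1 and the lowest of the 6, averaged 7.988 ± 0.463 in treated and 8.08 ± 0.412 in control rats. Probe sets bind unequally, so the order of levels between genes is a description only.

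The same 2 genes were the least even among rats treated alike. The SD within a treated condition was 0.404 for Pdia4 and 0.329 for Dnajb9, and 0.195 to 0.244 for the other 4 genes. Within control strata it was 0.359 for Pdia4 and 0.316 for Dnajb9, and 0.16 to 0.248 for the others. Control means also moved with the RNA extraction campaign, from 7.636 to 8.317 for Pdia4 and from 9.018 to 9.618 for Dnajb9, which is why every profile was set against controls of its own campaign.

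Large changes of these genes were few. A call needed a fold change of 1.5 or more and a p of 0.01 or less, from limma and adjusted over all 14217 genes by Benjamini-Hochberg. Of 570 tests of the 6 genes over 95 profiles, 6 (1.05%) were called, where 0.702% of all tests of all genes were called (0.357% higher and 0.344% lower). Dnajb9 was called higher after cyclosporin A at both doses and after vinblastine. Hspa5 was called lower after rapamycin, and Pdia4 after dexamethasone and after valdecoxib. No profile had 2 or more of the 6 genes called, and Hsp90b1, Calr and Xbp1 were called in none.

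**Figure D1:**
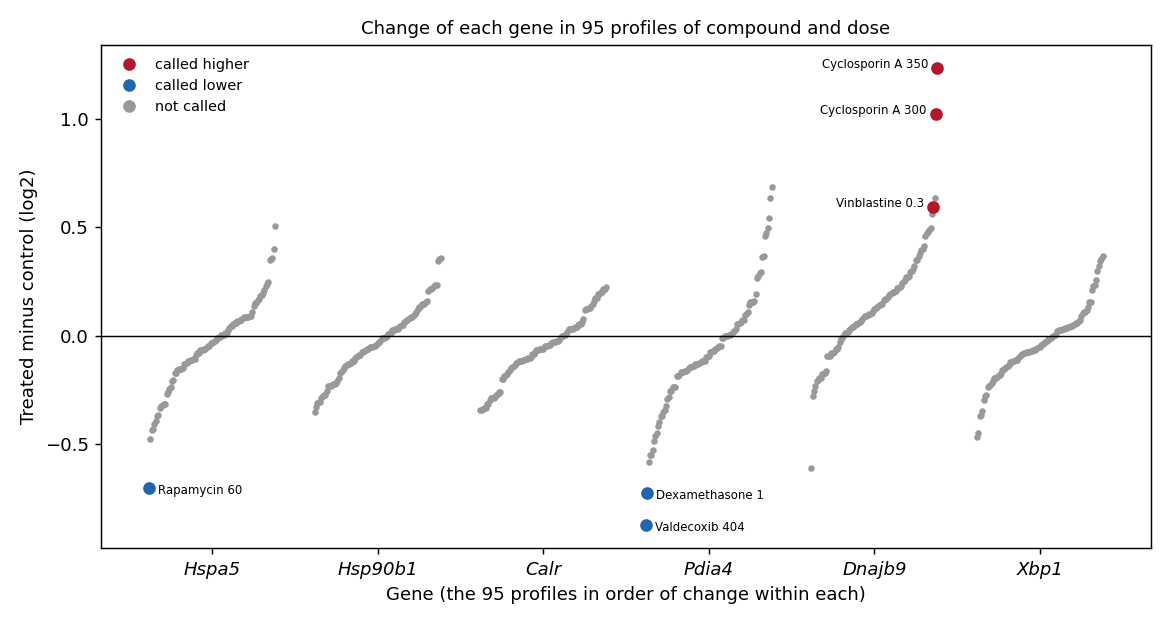
Each point is the change of 1 gene in 1 of 95 profiles, as treated minus control on the log2 scale (vertical axis), ordered by size within each gene (horizontal axis). Dnajb9 after cyclosporin A at 350 and 300 mg/kg lies above all other points, at 1.23 and 1.02, and the 3 called lower are Hspa5 after rapamycin and Pdia4 after dexamethasone and valdecoxib.

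Without the fold change minimum, 27 of the 570 tests (4.74%) were past the adjusted p, against 1.93% over all genes, and 21 of the 27 were lower (1.06% of all tests). Dnajb9 was past it in 5 profiles, all higher, and Xbp1 in 1 higher and 1 lower. Calr was lower in 7, Hspa5 and Pdia4 in 5 each, and Hsp90b1 in 3. By sign alone Dnajb9 was above its controls in 71 of 95 profiles (median change 0.12), while each of the other 5 genes was below them in 54 to 62 profiles (median changes of −0.09 to −0.03). Many profiles share controls, so these counts are not independent. In the order of changes over the 95 profiles, 3 of 94 neighbouring pairs of Dnajb9 differed by more than the larger of their standard errors, 2 of Pdia4, 1 of Hspa5, 1 of Hsp90b1, and none of Calr or Xbp1.

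Dnajb9 after cyclosporin A was the largest change among the 570. After 300 mg/kg its level was 10.53, 10.62 and 10.86 at 1 d, 9.88, 10.41 and 10.56 at 3 d and 10.41, 10.50 and 10.53 at 5 d, against 9.22, 9.34 and 9.49, 9.51, 9.52 and 9.73, and 8.83, 9.58 and 9.88 in controls of those durations. Of the 9 treated rats 8 lay above every control, and the lowest, of 3 d, lay level with the highest control. The mean was 10.48 ± 0.262 in treated and 9.456 ± 0.305 in control rats (SD, n = 9 each). The change was 1.02 (95% interval 0.75 to 1.30), a fold of 2.03, with an adjusted p of 0.000233 (limma), in a profile where 0.816% of all genes were called.

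After 350 mg/kg in Corn Oil the Dnajb9 level was 10.03, 10.25 and 10.45 at 3 d and 10.17, 10.57 and 10.62 at 5 d. The 19 controls ran from 8.27 to 9.46 with a median of 9.20, and no treated rat overlapped them. The change was 1.23 (95% interval 0.98 to 1.49), a fold of 2.35, with an adjusted p of 1.6e-07 (limma), where 1.92% of all genes were called. In both profiles Dnajb9 ranked 22 of 14217 genes by change. Differences were also taken within each pair of hybridisation batch and duration that held treated and control rats. A batch that recurred at another duration counted again. The difference was positive in 5 of 5 such pairs after 300 mg/kg (0.90 to 1.52) and in 5 of 5 after 350 mg/kg (0.98 to 1.30).

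Tacrolimus gave no such call. Dnajb9 was at 8.98, 9.39 and 9.41 at 3 d and at 9.02, 9.10 and 9.52 at 5 d, against 8.48 to 9.71 with a median of 9.03 in 18 controls, and the groups overlapped. The change was 0.19 (95% interval −0.07 to 0.46, adjusted p 0.349, limma), in a profile where 2.47% of all genes were called, and 0.16 without the 1 control that stood apart. By duration the Dnajb9 difference was 1.32, 0.69 and 1.05 at 1, 3 and 5 d of cyclosporin A 300 mg/kg, 1.03 and 1.43 at 3 and 5 d of 350 mg/kg, and 0.29 and 0.10 at 3 and 5 d of tacrolimus.

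**Figure D2:**
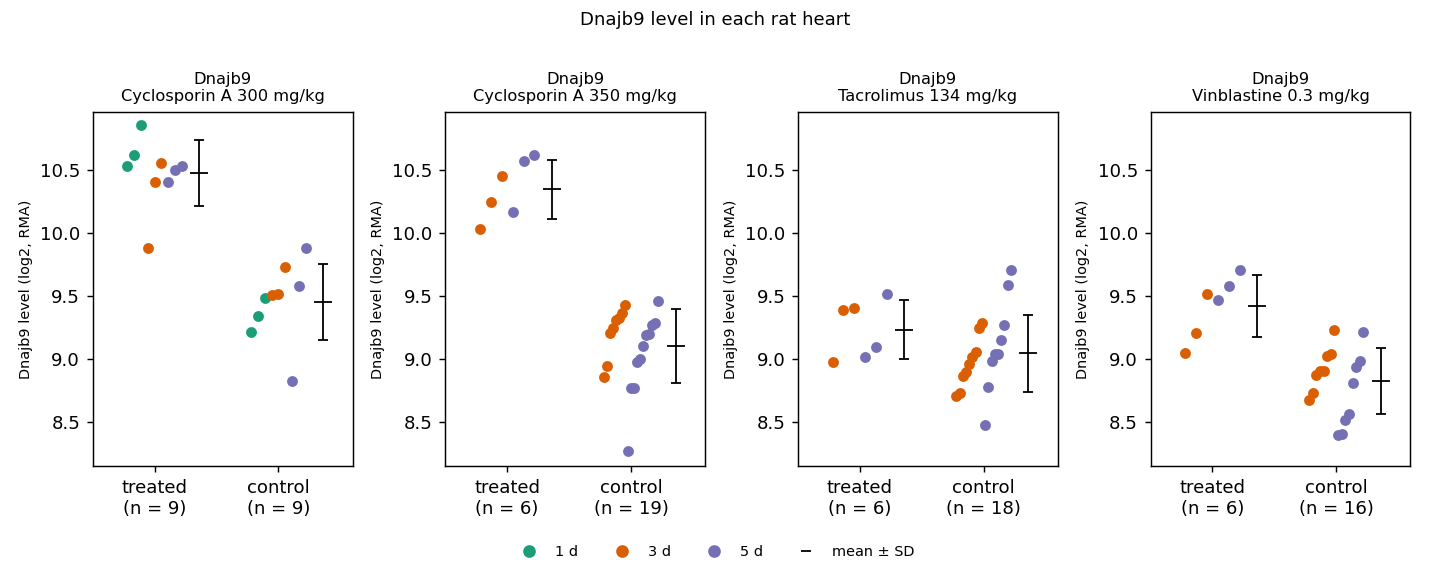
Dnajb9 level (log2, vertical axis) of each rat heart, treated rats left of their matched controls, for cyclosporin A 300 and 350 mg/kg, tacrolimus and vinblastine, coloured by duration, with mean and SD as bars. The cyclosporin A rats sit at 9.88 to 10.86 and 10.03 to 10.62, while the tacrolimus rats, at 8.98 to 9.52, lie within the range of their controls.

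The changes were also compared with each other. Dnajb9 differed among the 3 profiles (limma F test, adjusted p 0.000371, where 1.59% of all genes were called). None of the other 5 members passed the threshold (adjusted p of 0.152 or more). The change was larger by 1.04 after cyclosporin A 350 mg/kg than after tacrolimus (95% interval 0.66 to 1.42, adjusted p 0.00026, 1.53% of all genes called). After 300 mg/kg it was larger than after tacrolimus by 0.83 (0.45 to 1.21, adjusted p 0.00604, 1.1% called). Between both cyclosporin A profiles the difference was 0.21 (−0.16 to 0.59, adjusted p 1, 0% called). Cyclosporin A 350 mg/kg and tacrolimus shared the durations of 3 and 5 d and the extraction campaign, but compound, dose, vehicle and study differ between them, and their parts in the difference cannot be told apart. The 300 mg/kg rats differ from the tacrolimus rats in extraction campaign as well and include rats of 1 d. Without the 1 d rats its difference from tacrolimus was 0.68 (adjusted p 0.0841). The changes of the other 5 members also lay above those after tacrolimus, by 0.23 to 0.31 for 350 mg/kg and 0.28 to 0.43 for 300 mg/kg. Their unadjusted 95% intervals lay above 0 for Calr and Xbp1 at both doses, and for Hsp90b1 and Hspa5 at 300 mg/kg. None of these differences passed after adjustment over all genes (adjusted p 0.106 to 0.701, limma).

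No other member was called after a calcineurin inhibitor. Hspa5, the defining chaperone of the response, was at 11.36 to 12.03 after 300 mg/kg (median 11.73), against 11.19 to 11.78 (median 11.62) in controls. After 350 mg/kg Hspa5 was at 11.21 to 12.08 (median 11.41), against 10.71 to 11.66 (median 11.49), and after tacrolimus at 11.03 to 11.53 (median 11.37), against 11.31 to 11.78 (median 11.45). The groups overlapped in each profile, and the changes were 0.16, 0.15 and −0.16 (adjusted p 0.432, 0.61 and 0.167, limma). The cyclosporin A values average over durations of unlike sign. The Hspa5 difference was 0.28, −0.12 and 0.34 at 1, 3 and 5 d of 300 mg/kg, −0.21 and 0.48 at 3 and 5 d of 350 mg/kg, and −0.19 and −0.13 at 3 and 5 d of tacrolimus. Pdia4 gave 0.25, −0.36 and 0.99 over the durations of 300 mg/kg, and −0.36 and 0.63 at 3 and 5 d of 350 mg/kg. In the 350 mg/kg profile Hsp90b1 (−0.07 and 0.36), Calr (0.02 and 0.35) and Xbp1 (0.09 and 0.54) also had the larger difference at 5 d. The test of a change that differs between durations gave these 5 genes unadjusted p of 0.00494 to 0.0412 after 350 mg/kg, and none passed after adjustment over all genes (adjusted p 0.111 to 0.223, limma).

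Xbp1, which turns on Dnajb9 in other cells, came closest to the threshold among the others. Xbp1 was at 10.29 to 10.80 (median 10.62) after cyclosporin A 300 mg/kg, against 10.07 to 10.57 (median 10.33) in controls, a change of 0.30 (95% interval 0.14 to 0.45, adjusted p 0.0216). After 350 mg/kg it was at 10.07 to 10.80 (median 10.53), against 9.74 to 10.37 (median 10.17), a change of 0.32 (0.14 to 0.50, adjusted p 0.0154). The tacrolimus value was 0.02 (adjusted p 0.87). Hsp90b1, Calr and Pdia4 gave 0.15 to 0.29 after both doses of cyclosporin A (adjusted p of 0.152 or more) and −0.14 to −0.08 after tacrolimus (adjusted p of 0.187 or more).

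Over the 21 rats of all 3 profiles and their 46 controls in 1 fit, where 1.36% of all genes were called, Dnajb9 was higher by 0.82 (95% interval 0.63 to 1.01, fold 1.76, adjusted p 2.51e-10, limma). Xbp1 was higher by 0.21 (0.12 to 0.31, adjusted p 0.000179, where 18.4% of all genes were past the adjusted p), at a fold of 1.16, below the minimum for a call. Hspa5, Calr, Hsp90b1 and Pdia4 were at 0.05 to 0.10 (adjusted p of 0.134 or more).

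**Figure D3:**
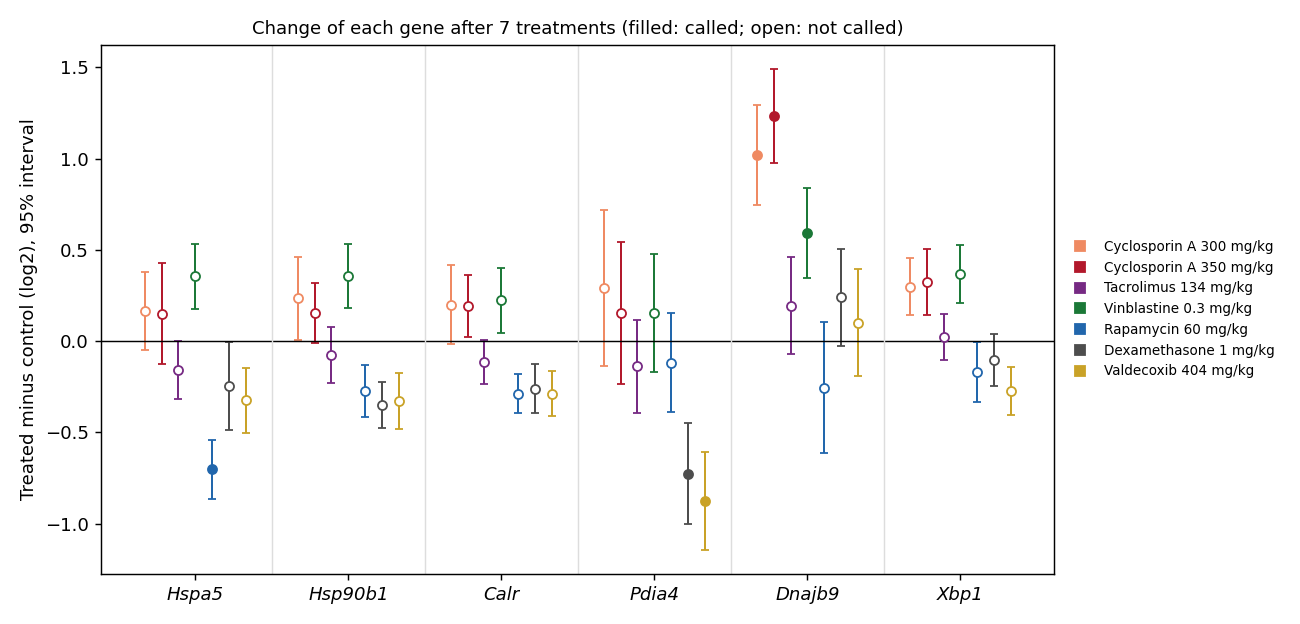
Change of each gene, treated minus control on the log2 scale (vertical axis), with its 95% interval, after 7 treatments, and filled points mark calls. Dnajb9 is the 1 gene with filled points above 0, after cyclosporin A 300 and 350 mg/kg and vinblastine, and filled points below 0 are Hspa5 after rapamycin and Pdia4 after dexamethasone and valdecoxib.

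In the hearts with higher Dnajb9 after cyclosporin A, 7 of 11 genes of protein entry into the ER were also higher. The ER translocation list holds the Sec61 channel, the signal peptidase, the translocon-associated (Ssr) proteins and the signal receptor subunit Srprb. After 300 mg/kg 7 of its 11 measured genes were past the adjusted p, all higher (0.879% of all genes were past it and higher), with a median change of 0.38, against 0.00 over all genes. After 350 mg/kg 7 of 11 were higher, with a median of 0.35 (3.09% of all genes), and these were the same 7 genes, Sec11c, Sec61a1, Sec61b, Sec61g, Spcs2, Srprb and Ssr3. After tacrolimus none was past it in either direction, with a median of 0.11 (5.47% of all genes higher). In the test of the difference from tacrolimus itself, 3 of the 11 were higher after 350 mg/kg (Sec11c, Sec61g and Srprb) and 1 after 300 mg/kg (Sec61g). Of the other 4 of the 7, the differences were 0.23 to 0.34 for 350 mg/kg (adjusted p 0.0168 to 0.365) and 0.29 to 0.40 for 300 mg/kg (adjusted p 0.0241 to 0.201), so most of the 7 were not shown to differ from tacrolimus.

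Sec11c, a catalytic subunit of the signal peptidase, was the list's 1 called gene. It was at 8.85 to 9.62 (median 9.28) after cyclosporin A 300 mg/kg, against 8.28 to 8.89 (median 8.59), a change of 0.70 (adjusted p 0.000971, limma). After 350 mg/kg Sec11c was at 9.08 to 10.18 (median 9.70), against 8.38 to 9.14 (median 8.67), a change of 0.98 (adjusted p 9.25e-07). After tacrolimus it was at 8.76 to 9.17 (median 8.96), against 8.44 to 9.13 (median 8.84), a change of 0.16 (adjusted p 0.251). The differences from tacrolimus were 0.82 for 350 mg/kg (adjusted p 0.000337) and 0.54 for 300 mg/kg (adjusted p 0.0339). Sec61g, a small subunit of the channel, differed from tacrolimus by 0.45 (adjusted p 0.000134) and 0.49 (adjusted p 7.92e-05) for 350 and 300 mg/kg.

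**Figure D4:**
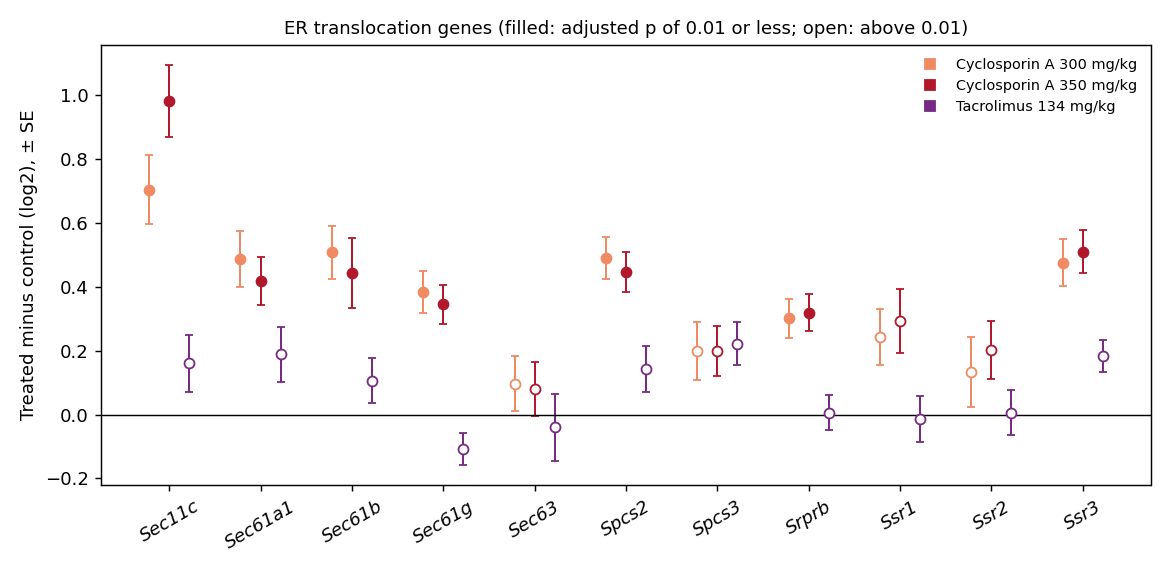
Change of the 11 ER translocation genes, treated minus control on the log2 scale with the standard error (vertical axis), after cyclosporin A 300 and 350 mg/kg and tacrolimus, with filled points at an adjusted p of 0.01 or less. The 7 genes filled for cyclosporin A are the same at both doses, with Sec11c the highest at 0.70 and 0.98, and no tacrolimus point is filled.

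The other lists of ER protein handling had 0 to 3 genes past the adjusted p in each profile. Over all genes 0.879%, 3.09% and 5.47% were past it and higher after 300 mg/kg, 350 mg/kg and tacrolimus. Of 7 genes of the UPR sensors and their processing, 1 was higher after each cyclosporin A dose and none after tacrolimus. It was Eif2ak3, which encodes PERK, after 300 mg/kg (0.51, adjusted p 0.00514) and Creb3l2, an ER-bound transcription factor, after 350 mg/kg (0.39, adjusted p 0.000787). In the joint fit of the 3 profiles, 1467 of 14217 genes were past the adjusted p and higher, and 1143 were past it and lower. Past it and higher were 4 of the 7 sensor genes, 6 of 11 of ER-associated degradation, 5 of 10 foldases and 9 of 11 of translocation. Among 11 further ER chaperones, 3 were past it and higher and 1 lower. The joint fit averages over cyclosporin A and tacrolimus, and most of its treated rats were given cyclosporin A. After tacrolimus singly no sensor, foldase, translocation or further chaperone gene was past the adjusted p, and 2 of ER-associated degradation were higher. Of 10 foldases, P4hb (protein disulfide isomerase) alone was higher after both doses taken singly. P4hb was at 11.80 to 12.31 after 300 mg/kg, against 11.19 to 11.62, a change of 0.58 (adjusted p 0.000275), and at 11.64 to 12.04 after 350 mg/kg, against 11.06 to 11.47, a change of 0.57 (adjusted p 1.5e-07). Neither pair of groups overlapped, both folds lay just under the minimum, and the tacrolimus value was 0.04 (adjusted p 0.718). Of 11 further ER chaperones, Dnajc3, a J-domain inhibitor of PERK, was higher at both doses (0.50 and 0.33), and Canx (0.30) and Cnpy2 (0.46) after 350 mg/kg. Of 11 genes of ER-associated degradation, Selenos was higher after all 3 treatments (0.49, 0.55 and 0.39 for 300 mg/kg, 350 mg/kg and tacrolimus), and Edem1 was higher after tacrolimus (0.58).

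The PERK arm had no gene past the adjusted p after 300 mg/kg. After 350 mg/kg Asns (0.45) and Atf4 (0.49) of 9 genes were past it and higher, as were 3.09% of all genes. Ddit3 (CHOP), a target linked to cell death, was at changes of 0.00, 0.38 and 0.10 after 300 mg/kg, 350 mg/kg and tacrolimus (adjusted p of 0.142 or more). Atf3, a stress-induced factor, was called higher after tacrolimus, at 9.11 to 10.10 (median 9.32), against 4.23 to 9.55 (median 4.86) in controls, a change of 3.57 (adjusted p 0.002). Its controls span more than 5 log2 units, and the groups overlapped. In the joint fit of the 3 profiles Nupr1, another stress-induced factor, was called higher by 0.99 (adjusted p 9.84e-05).

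Heat shock proteins outside the ER gave another pattern. Of 8, 3 were lower after 300 mg/kg, 3 lower after 350 mg/kg, and 2 lower and 3 higher after tacrolimus, where 5.47% of all genes were past the adjusted p and higher. The mitochondrial pair Hspd1 and Hspe1 was past the adjusted p and lower after all 3 treatments (−0.35, −0.49 and −0.23 for Hspd1, and −0.45, −0.57 and −0.22 for Hspe1, for 300 mg/kg, 350 mg/kg and tacrolimus), where 1.15%, 2.9% and 3.73% of all genes were past it and lower. Hspb1 was called lower after 350 mg/kg (−0.69), and Hspa1a higher after tacrolimus (0.89, adjusted p 0.00627).

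Among the calcium store and calcineurin genes, Asph, which encodes junctin among other products, was past the adjusted p and lower after all 3 treatments (−0.55, −0.50 and −0.35 for 300 mg/kg, 350 mg/kg and tacrolimus). Of 8 calcium store genes 2, 1 and 3 were past it and lower in that order (1.15%, 2.9% and 3.73% of all genes), and none was called. Rcan1, a calcineurin-NFAT target that feeds back on calcineurin, was lower after cyclosporin A and not after tacrolimus. It was at 10.34 to 12.02 (median 10.91) after 300 mg/kg, against 10.73 to 12.59 (median 12.04), a change of −0.90 (adjusted p 0.00765), and at 10.06 to 11.17 (median 10.62) after 350 mg/kg, against 10.86 to 12.73 (median 11.53), a change of −0.91 (adjusted p 0.000551). After tacrolimus Rcan1 was at 10.90 to 11.71 (median 11.56), against 10.58 to 11.99 (median 11.27), a change of 0.17 (adjusted p 0.495), and the changes differed by −1.08 for 350 mg/kg (adjusted p 0.00507) and −1.07 for 300 mg/kg (adjusted p 0.00687).

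Markers of blood cells moved in the same hearts, where fewer cells of a type and less RNA per cell cannot be told apart. Of 4 red cell genes 3 were called lower after 300 mg/kg, 4 after 350 mg/kg and 3 after tacrolimus (0.478%, 0.865% and 0.802% of all genes). Their median level per rat was 5.92 to 9.15 after 300 mg/kg, against 8.11 to 9.64, 5.43 to 7.67 after 350 mg/kg, against 8.00 to 9.75, and 6.96 to 8.08 after tacrolimus, against 7.86 to 10.15. Macrophage genes were called higher for 0 of 6 after 300 mg/kg, 2 of 6 after 350 mg/kg (7.42 to 7.95 per rat, against 6.83 to 7.43) and 4 of 6 after tacrolimus (6.99 to 7.84, against 6.60 to 7.37). Both neutrophil genes were called higher after 350 mg/kg (6.39 to 7.49, against 5.28 to 7.06). Over all genes 0.338%, 1.06% and 1.67% were called higher after 300 mg/kg, 350 mg/kg and tacrolimus. The part of these cells in the Dnajb9 result was not tested.

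Vinblastine, which blocks microtubule assembly, was the third treatment with Dnajb9 called higher. Dnajb9 was at 9.05, 9.21 and 9.52 at 3 d and 9.47, 9.58 and 9.71 at 5 d, against 8.40 to 9.23 with a median of 8.90 in 16 controls, and 2 of the 6 treated rats overlapped the controls. The change was 0.59 (95% interval 0.35 to 0.84, fold 1.51, adjusted p 0.00536, limma), just past the fold minimum, in a profile where 0.767% of all genes were called. It was 0.62 without the 1 control that stood apart. The difference was 0.33 at 3 d and 0.85 at 5 d, and positive in 5 of 5 pairs of hybridisation batch and duration (0.07 to 1.05). The call was lost in 8 of 14 alternative analyses and when any 1 of 10 of the 22 rats was left out, 4 of them treated and 6 controls (0.52 to 0.68 over all 22). With the 1 control of its own study, which matched the 3 d rats alone, the change was 0.22. That value leaves out the 5 d rats.

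Hspa5 (0.35), Hsp90b1 (0.36) and Xbp1 (0.37) were also above their controls after vinblastine, of which Xbp1 was past the adjusted p (0.00701, as were 1.22% of all genes) and the other 2 were not (0.0197 and 0.0174). Calr was at 0.22 (adjusted p 0.144) and Pdia4 at 0.15 (adjusted p 0.662). Red cell genes were called lower for 3 of 4 (5.69 to 7.22 per rat, against 7.93 to 9.64) and macrophage genes higher for 3 of 6 (7.22 to 8.20, against 6.60 to 7.34). Over all genes 0.317% were called lower and 0.45% higher. The part of these cells was not tested.

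Rapamycin gave the one call of Hspa5. Hspa5 was at 10.55, 10.59 and 10.98 at 3 d and at 10.74, 10.89 and 10.95 at 5 d, against 11.31 to 11.78 with a median of 11.45 in 18 controls, and all treated rats lay below all controls. The change was −0.70 (95% interval −0.87 to −0.54), 1.63-fold lower, with an adjusted p of 1.73e-05 (limma), in a profile where 0.513% of all genes were called. The difference was negative in 4 of 4 pairs of hybridisation batch and duration (−0.94 to −0.33). Without the 1 treated and 1 control array that stood apart it was −0.68 (adjusted p 0.000201). The 18 controls came from 11 studies, none of them that of the treated rats. Among the other members Calr was lower (−0.29, adjusted p 0.00219, a threshold that 1.39% of all genes passed), and Hsp90b1 (−0.27), Dnajb9 (−0.26), Xbp1 (−0.17) and Pdia4 (−0.12) were not past the adjusted p (0.0247 to 0.717).

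Further ER chaperones were lower with Hspa5, named here after their values were seen. Of 11, 4 were past the adjusted p, all lower (0.837% of all genes were past it and lower). Sdf2l1, a partner of Hspa5, was called, at 6.89 to 7.32 (median 7.04), against 7.60 to 8.39 (median 7.79), a change of −0.80 (adjusted p 5.64e-05). Manf (−0.56), Hyou1 (−0.55) and Canx (−0.38) were the other 3, and of 10 foldases Pdia6 was lower (−0.56, adjusted p 0.000189). Of 9 genes of the PERK arm 2 were called higher in the same hearts, where 0.415% of all genes were. Ppp1r15a (GADD34), which reverses the PERK signal, was at 9.29 to 10.43 (median 9.44), against 8.12 to 9.29 (median 8.56), a change of 0.99 (adjusted p 0.00144). Atf3 was at 9.46 to 10.79 (median 10.01), against 4.23 to 9.55 (median 4.86) in its widely spread controls, a change of 4.07 (adjusted p 0.00323). Of 8 heat shock proteins outside the ER 2 were called higher and 2 were past the adjusted p and lower. The cytosolic Hspa1a was at 8.75 to 10.82 (median 9.37), against 7.32 to 8.88 (median 8.22), a change of 1.33 (adjusted p 0.00096), and Dnajb1 changed by 0.96 (adjusted p 0.00238). The mitochondrial Hspd1 (−0.23, adjusted p 0.00787) and Hspe1 (−0.30, adjusted p 0.00816) were lower. Of the markers of other cells, 1 macrophage gene of 6 was called higher.

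Pdia4 was the member called lower in 2 profiles. After valdecoxib, an inhibitor of cyclooxygenase 2, it was at 7.21, 7.46 and 8.14 at 3 d and at 6.84, 7.24 and 7.31 at 5 d, against 7.73 to 8.79 with a median of 8.24 in 18 controls. Of the 6 treated rats 5 lay below all controls. The change was −0.87 (95% interval −1.14 to −0.61), 1.83-fold lower, with an adjusted p of 0.000223 (limma), where 0.724% of all genes were called. It was negative in 4 of 4 hybridisation batches (−0.86 to −0.34), and −0.86 without the 1 control that stood apart. Calr (−0.29, adjusted p 0.00425), Hsp90b1 (−0.33, adjusted p 0.00848) and Xbp1 (−0.27, adjusted p 0.00988) were also lower, Hspa5 was at −0.32 (adjusted p 0.0242) and Dnajb9 at 0.10 (adjusted p 0.691), and 2.4% of all genes were past the adjusted p. Both neutrophil markers were called higher (6.21 to 10.10 per rat, against 5.14 to 8.04), where 0.204% of all genes were. The part of neutrophils was not tested.

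After dexamethasone, a glucocorticoid, Pdia4 was at 7.40, 7.54 and 7.89 at 3 d and at 6.85, 7.22 and 7.44 at 5 d, against 7.49 to 8.78 with a median of 8.09 in 19 controls, and 2 treated rats overlapped them. The change was −0.73 (95% interval −1.0 to −0.45), 1.65-fold lower, with an adjusted p of 0.000163 (limma), in a profile where 6.27% of all genes were called, the highest share of the 7 described. It was negative in 3 of 3 hybridisation batches (−1.14 to −0.53). The 19 controls came from 10 studies, none of them that of the treated rats. Hsp90b1 (−0.35, adjusted p 7.51e-05) and Calr (−0.26, adjusted p 0.00387) were lower, while Hspa5 (−0.25, adjusted p 0.15), Xbp1 (−0.10, adjusted p 0.359) and Dnajb9 (0.24, adjusted p 0.215) were not past the adjusted p, which 14.3% of all genes were. Fibroblast and matrix genes were called lower for 5 of 7, at 8.88 to 9.65 per rat, against 11.20 to 12.14, groups that lie far apart. Macrophage genes were called higher for 3 of 6 and neutrophil genes for 2 of 2. Over all genes 3.68% were called lower and 2.6% higher, and the part of these cells was not tested.

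**Figure D5:**
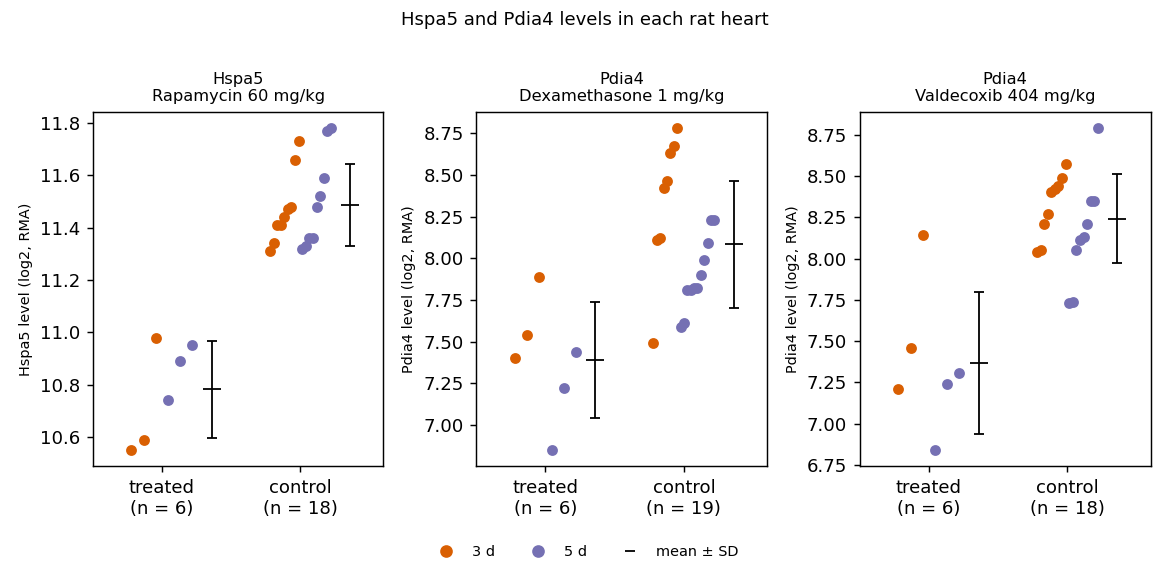
Level (log2, vertical axes, which do not start at 0 and differ between panels) of Hspa5 after rapamycin and of Pdia4 after dexamethasone and after valdecoxib in each rat heart, treated left of control, coloured by duration, with mean and SD as bars. The 6 rapamycin rats, at 10.55 to 10.98, all lie below the controls, whose lowest is at 11.31, and the Pdia4 groups overlap.

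Several members moved lower together in 2 further profiles without a call, both named after their values were seen. After chlorobenzene 500 mg/kg (Oral Gavage in CMC, 9 treated rats, 27 controls) Pdia4 (−0.58, adjusted p 0.000315), Hspa5 (−0.43, adjusted p 0.000372), Hsp90b1 (−0.31, adjusted p 0.000229) and Calr (−0.31, adjusted p 1.57e-05) were lower, where 12.6% of all genes were past the adjusted p. The Pdia4 fold lay just under the minimum, and with controls of every campaign Pdia4 was called (−0.60, adjusted p 0.00024, limma). After terfenadine 750 mg/kg (same vehicle and route, 6 treated rats, 18 controls) Pdia4 (−0.55, adjusted p 0.00527), Hspa5 (−0.40, adjusted p 0.00401) and Calr (−0.34, adjusted p 0.000339) were lower, where 6.46% of all genes were. With valdecoxib and dexamethasone these were the 4 profiles with 3 or more members past the adjusted p. Chlorobenzene, terfenadine and valdecoxib were given in the same vehicle by the same route, so their controls can be the same rats. These profiles are therefore not taken as independent. No profile had members past the adjusted p in both directions, all 6 changes were positive in 13 profiles and all 6 negative in 10.

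The remaining extremes of single members were not called. Dnajb9 was lowest after isoprenaline 2 mg/kg, a beta agonist delivered by subcutaneous mini-pump, at 8.68 to 9.62 (median 9.03) in 8 treated rats, against 9.12 to 10.11 (median 9.78) in 9 controls. That change was −0.61 (95% interval −0.92 to −0.31, adjusted p 0.0122, limma), in a profile where 1.86% of all genes were called. Hspa5 was highest after cobalt chloride 10 mg/kg (0.50, adjusted p 0.263, 3 rats in each group), Hsp90b1 after alendronic acid 138 mg/kg (0.36, adjusted p 0.528) and Pdia4 after norepinephrine 1.75 mg/kg (0.68, adjusted p 0.0962). Xbp1 and Calr were lowest after atenolol 1000 mg/kg (−0.47 and −0.34, adjusted p 0.0443 and 0.0328), where 1 treated rat had no matched controls and was left out. Without the arrays that stood apart these values were −0.18 and −0.19.

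Duration was tested in 77 profiles with 2 or more durations. Of 462 tests of a change that differs between durations 0 were past an adjusted p of 0.01 (limma), 54 were at an unadjusted p under 0.05, and the lowest adjusted p was 0.0469 for Hsp90b1 after chlorpropamide 269 mg/kg. Over all genes 0.117% of such tests were past 0.01. Among controls, 114 rats of 3 and 5 d were set against 52 of 1 d, which differ in hour of harvest as well as in duration. None of the 6 genes was called, where 0.0774% of all genes were. The largest difference of the 6 was that of Dnajb9, at −0.13 (adjusted p 0.104, means 9.109 and 9.251).

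Across rats the members varied together to different degrees. Levels were centred on the mean of rats of the same vehicle, route, duration and campaign. Below, r over 610 treated rats is followed by r over 212 controls, all of which share these means and the array normalization. Arrays that stood apart entered these values, and their part in r was not tested. Hsp90b1 went with Calr (r = 0.79 and 0.766), Hspa5 with Hsp90b1 (0.729 and 0.791) and Xbp1 with Hspa5 (0.719 and 0.835). Dnajb9 went with Xbp1 (0.631 and 0.679) and least with Calr (0.154 and 0.33) and Pdia4 (0.19 and 0.3). The genes most like all 6 by mean r over treated rats were Pdia6 (0.65), Manf (0.617), Rpn1 (0.611), Pdia3 (0.599) and Rpn2 (0.595), followed by Ywhaq, Ddost, Arcn1, Ssr3 and Lman2 (0.547). The genes most like single members were Manf for Hspa5 (0.796 and 0.767), Calr for Hsp90b1, Hsp90b1 for Calr and for Pdia4 (0.699 over treated rats), Hspa5 for Xbp1 and Fcho2 for Dnajb9 (0.654 and 0.564). The 3 genes most like Dnajb9, Fcho2, Rab5b and Krit1, belong to none of the ER lists.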

How the data were processed

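The authors deposited log2 expression values, 1 per probe set and array. RMA (background correction, normalization between arrays, summary of probes) is named in the submitters' processing notes, with no version. Common normalization sets array distributions equal, so changes are relative to the other genes. All array columns were used (0 left out), with values from 3.15 to 14.8. The platform annotation gave a single gene symbol to 20826 of 31099 probe sets, several to 436 and none to 9780, and 57 were control probe sets. Probe sets with a single symbol alone were named. Each gene took its probe set of highest mean, and each of the 6 members had exactly 1. Of 14217 genes, 14167 matched the rat reference table (GRCr8).

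Groups came from the labels. Extraction dates fell into 5 campaigns and hybridisation dates into 51 batches. Of a rat's 2 arrays, the one of the earlier campaign was used, and rats of a group are separate animals. The vehicle or route of 12 controls is given differently by title and characteristics, and these entered no comparison. No controls could be matched to 2'-Beta-Fluoro-2',3'-Deoxyadenosine or to daunorubicin by gavage. Some saline controls labelled with a subcutaneous route and titled as mini-pump were taken as mini-pump.

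Treated and control rats were compared with the lmFit and eBayes functions of limma (version 3.58.1, R version 4.3.3), with duration and campaign as 1 factor and Benjamini-Hochberg adjustment over all genes. On simulated data of 14217 genes for each calcineurin inhibitor profile, 98% to 99% of genes changed by 1 on the log2 scale were called, and 100% of those changed by 2. The simulated noise was normal and independent between rats, with no study or batch effect, and changes smaller than 1 were not simulated. Figures used matplotlib 3.10.9 in Python 3.11.15.

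The members and lists were chosen with earlier results of these data known. Named were the members, called genes of the lists in the calcineurin inhibitor profiles, genes of like pattern, and compounds with the highest or lowest change of a member. List genes past the adjusted p that were not called were named in addition, after their values were seen. Alternatives were other control sets, other normalization, probe set and gene filters, study or hybridisation batch as a block, an unmoderated test, another threshold, and leaving out arrays, durations or single rats. Leaving out rats and durations outside the calcineurin inhibitors and for the differences among them, and hybridisation batch as a fixed factor there, were chosen after seeing the data.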

Additional observations from a re-analysis of the deposited data

Results flagged for a closer look

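Of 108 tests of a gene in a group of 4 to 10 rats, 11 found 1 rat far from the others of its group, where chance gives about 1 in 20. Most of the 11 came from 1 atenolol and 1 isoprenaline rat, described below, and treated groups pooled durations. The tests were thus not independent, and the count cannot be weighed against that rate. Dnajb9 after cyclosporin A 300 mg/kg had 1 rat of 3 d at 9.88, against 10.41 to 10.86 in the other 8. Hspa5 had 1 Corn Oil control of 3 d at 11.25, against 11.44 to 11.58 in the other 7, and this rat is among the controls of cyclosporin A 350 mg/kg and dexamethasone.

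One atenolol rat of 3 d was low in 5 of these tests, with Hspa5 at 9.22 (others 10.69 to 11.83), Hsp90b1 at 9.92 (10.77 to 11.10), Xbp1 at 7.89 (9.58 to 10.38), Pdia4 at 6.36 (7.69 to 8.27) and Dnajb9 at 7.39 (8.93 to 9.67). Its array correlated with the mean of all arrays at r = 0.8785, the lowest of the series. The median of its heart muscle markers was 12.17, against 13.88 to 14.00 in the others, and of its liver markers 5.86, against 4.85 to 5.10. The part of these in its values was not tested.

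One rat of 1 d of isoprenaline 2 mg/kg was high, with Hspa5 at 12.28 (others 10.82 to 11.47), Hsp90b1 at 12.00 (10.85 to 11.32), Xbp1 at 10.51 (9.94 to 10.18) and Calr at 11.99 (10.95 to 11.19). Its Pdia4, at 9.55, was also the highest of the group, and its Dnajb9 was at 9.19. Its heart muscle markers were at 13.85, against 13.64 to 13.94 in the others, and its macrophage markers at 9.38, against 7.62 to 9.69. Of 15 marker sets 1 lay outside the range of the others, exocrine pancreas at 4.94, against 4.62 to 4.87, and its part was not tested.

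The Dnajb9 change differed between treatments, by 1.04 between cyclosporin A 350 mg/kg and tacrolimus and by 0.83 between cyclosporin A 300 mg/kg and tacrolimus (limma, adjusted p 0.00026 and 0.00604).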

How the results depend on the processing

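The 6 calls of the members over all profiles came to 5 to 7 in 9 of 11 alternatives. With controls of the own study alone, which 51 profiles have, 1 was left, and at an adjusted p of 0.05 without a fold minimum there were 51. For the calcineurin inhibitor profiles taken singly, these 2 settings gave 1 and 4 calls in place of 2, and for their joint fit the looser threshold gave 2 in place of 1. Own-study controls exist for cyclosporin A 300 mg/kg alone of these 3. Rapamycin and dexamethasone have none either, so their calls of Hspa5 and Pdia4 could not be tested this way. In profiles without own-study controls, study and treatment cannot be told apart. Dnajb9 was called in 15 of 15 alternatives after 300 mg/kg (0.87 to 1.18), 13 of 13 after 350 mg/kg (1.03 to 1.43) and 15 of 15 in the joint fit (0.74 to 1.02), and with each rat left out (0.93 to 1.1, 1.17 to 1.31 and 0.78 to 0.86). Its difference between 350 mg/kg and tacrolimus was past the threshold in 4 of 4 alternatives and with each of 67 rats left out (0.97 to 1.12). That between 300 mg/kg and tacrolimus was 0.68 without the 1 d rats (adjusted p 0.0841) and 0.74 to 0.91 with 1 rat left out, past the threshold in 58 of 67.

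Dnajb9 after vinblastine lost its call with a new quantile normalization (0.56), hybridisation batch (0.58) or study (0.58) as a random block, batch as a fixed factor (0.55), an unmoderated test (0.59) and without the 3 d (0.85) or 5 d (0.33) rats, of which the last 2 tests had fewer rats. Hspa5 after rapamycin lost it without the 3 d (−0.64) or 5 d (−0.77) rats and kept it with each of 24 rats left out (−0.75 to −0.66). Pdia4 after valdecoxib lost it without 3 d (−1.03) or 5 d (−0.72) rats, with batch as a fixed factor (−0.62) and with its 2 own-study controls (−0.84), and kept it with each of 24 rats left out (−1.01 to −0.79). Pdia4 after dexamethasone lost it without 5 d rats (−0.72). Of 1278 values of single genes under alternatives, 1235 kept their side of the threshold, 25 were weaker, 18 stronger and 0 reversed. Most of these values are of results without a call, so the total says little about how firm the calls are. The cause of other changes was not tested. Each member has 1 probe set, so another probe set gave no value. No paired analysis was possible because the labels give rats no shared replicate numbers across groups. Treated and control rats that share a hybridisation batch were matched through the batch as a block and within batches.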

Other observations

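Of the 22 rats measured on 2 arrays from different extraction campaigns, the later array minus the earlier one differed by a median of 0.17 for Dnajb9 (SD 0.374), 0.20 for Pdia4 (SD 0.554), 0.10 for Hsp90b1, 0.07 for Calr, 0.02 for Xbp1 and −0.10 for Hspa5.

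The 12 controls that the labels put in no group had Hspa5 at 10.80 to 11.75 (median 11.51) and Dnajb9 at 8.69 to 9.82 (median 9.41). In the profiles without matched controls, 9 rats given 2'-Beta-Fluoro-2',3'-Deoxyadenosine had Dnajb9 at 9.25 to 9.92 (median 9.45), and 9 rats given daunorubicin by gavage had Dnajb9 at 7.29 to 9.92 (median 9.50) and Hspa5 at 9.41 to 11.66 (median 11.46).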
